A study of Mus musculus with 384 samples.

Results

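Rods, the photoreceptors of dim light, are the most numerous cells of the mouse retina. The 9 genes described here (Gnat1, Gngt1, Pde6a, Pde6b, Cnga1, Sag, Pdc, Nrl and Nr2e3) are genes of the rod phototransduction cascade or of rod identity, taken by name from 32813 genes. They were followed over single wells of a sort that was not aimed at rods. In every well each gene had an expected count, which is the number of reads that RSEM assigns to it, and a TPM value, which scales reads by transcript length to a fixed total per well. A gene was taken as detected in a well from an expected count of 1.

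The wells came from mice at postnatal day 17 that carried Kcng4tm1.1(cre)Jrs, a Cre recombinase under the Kcng4 locus, together with the Thy1-stop-YFP Line#1 reporter, which makes yellow fluorescent protein once Cre has acted. Fluorescent cells from 4 retinas of 2 mice (1la, 1Ra, 2la and 2Ra, with suffixes that the labels do not spell out) were sorted by FACS into 96-well plates, and cDNA was made by Smart-seq2, a full-length method without molecular identifiers. All wells shared this genotype, and no treatment was given. The reporter marks cells in which the Kcng4 driver is or was active, and each retina had its own 96 wells, so that a retina and its set of wells cannot be told apart. Values were present for 383 of 384 wells, 95 of retina 1la and 96 of each of the others. Total expected counts ran from 2 to 1945580 per well with a median of 999209, and 62 wells had under 3000 detected genes. All 383 were kept here.

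In the rod cascade, light-activated visual pigment switches on transducin, whose alpha subunit (Gnat1) then leaves the beta-gamma pair that holds the gamma subunit Gngt1. The alpha subunit activates a phosphodiesterase made of the catalytic subunits Pde6a and Pde6b, cyclic GMP falls, and the cyclic nucleotide-gated channel, with Cnga1 as its alpha subunit, closes. Rod arrestin (Sag) shuts the pigment off and phosducin (Pdc) binds the transducin beta-gamma pair. Nrl and Nr2e3 are transcription factors of rod identity, and Nrl acts on rod promoters together with the homeodomain factor Crx.

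The promoters of the rod genes are shown because Nrl and Crx are known to act there and because the genes below are compared for how far they move together. RefSeq windows (GRCm38.p6) were matched for 7 of the 9 genes. Gnat1 and Pde6a had no entry. The 250 bases before the annotated start of 3 genes are given 5′ to 3′ on the gene's strand: Pde6b (chr5:108388123-108388372, plus strand), Sag (chr1:87803430-87803679, plus strand) and Pdc (chr1:150319167-150319416, plus strand). For Gngt1 a site of 30 bases is given (chr6:3993952-3993981, plus strand). Capitals mark matches, on either strand, to TGCTGA, the core of an Nrl site, or to TAATCC, a Crx site (GGATTA on the opposite strand).
Pde6b: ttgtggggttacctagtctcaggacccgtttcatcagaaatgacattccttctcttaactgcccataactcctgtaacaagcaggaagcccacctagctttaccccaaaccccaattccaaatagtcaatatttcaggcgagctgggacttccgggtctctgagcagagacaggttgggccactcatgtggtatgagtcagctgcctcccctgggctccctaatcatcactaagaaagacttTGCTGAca
Sag: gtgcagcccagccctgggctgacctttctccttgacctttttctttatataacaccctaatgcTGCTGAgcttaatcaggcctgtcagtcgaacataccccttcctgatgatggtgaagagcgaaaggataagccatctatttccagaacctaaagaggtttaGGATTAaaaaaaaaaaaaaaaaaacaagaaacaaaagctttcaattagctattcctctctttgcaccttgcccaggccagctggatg
Pdc: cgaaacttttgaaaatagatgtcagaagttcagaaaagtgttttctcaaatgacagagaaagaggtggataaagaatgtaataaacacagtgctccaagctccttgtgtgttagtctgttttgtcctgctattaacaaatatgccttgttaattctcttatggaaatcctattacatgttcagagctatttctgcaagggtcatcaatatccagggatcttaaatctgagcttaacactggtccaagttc
Gngt1: tcatattaggggGGATTAtgaagaagcttt

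TGCTGA was found in 2 of the 7 windows, 8 bases before the start of Pde6b and 187 bases before that of Sag, against 16.1% of 32851 promoter windows of the same length. TAATCC was found in 3 of the 7, in Cnga1 at 228, Sag at 87 and Gngt1 at 44 bases before the start, against 6.25% of all windows. No match of one motif overlapped a match of the other in these windows. Pdc, Nrl and Nr2e3 held no match, which says only that these letters are not in their windows. The RefSeq start of Gngt1 lies inside the gene as GENCODE vM21 draws it (chr6:3993792-3997436, plus strand), where its first exon begins further upstream. The windows of Cnga1, Nrl and Nr2e3 also lie inside their genes in that annotation.

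Most wells carried the genes of another retinal class. Of 13 bipolar cell genes, 12 were at 1 TPM or more in most wells, with a median summed level of 5900 TPM, while 9 cone genes summed to a median of 4.01 TPM and 8 Müller glia genes to 230 TPM. Kcng4 was at 1 TPM or more in 78.9% of wells. The wells were split by which of Sox6, Vsx1 and Ddit4l, which are not rod genes, was at 20 TPM or more. Sox6 alone passed in 157 wells, Vsx1 alone in 62, Ddit4l alone in 60, none in 84 and several in 20. The values next to the threshold were 18.7 and 20.8 TPM for Sox6, 15.8 and 31 TPM for Vsx1 and 16.9 and 29 TPM for Ddit4l. The wells without a marker stood apart in depth, with a median total of 376227 counts and 51 of 84 wells under 3000 genes.

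Rod genes were found in most wells, and the 9 genes differed in how their levels were spread. Sag was nearly everywhere and Gngt1 was widespread at low to middling levels, whereas Gnat1, Pdc, Pde6b and Cnga1 were mostly either at 0 or a few counts, or at 100 counts and more, with few wells between. Gnat1 was under 1 count in 105 wells, at 1 to 10 counts in 139, at 10 to 100 in 12, at 100 to 1000 in 45 and above that in 82. Its median was 2.07 TPM and its highest value 32821 TPM. Pdc had the same gap, with 10 wells at 10 to 100 counts and 98 at 100 or more, and so did Pde6b, with 9 and 83, and Cnga1, with 12 and 58. The gap was less clear for Nr2e3 (19 and 59) and Pde6a (21 and 49), and Nrl had none, with 41 wells at 10 to 100 counts and 14 above. Sag, by contrast, had 174 wells at 10 to 100 counts, and Gngt1 had 121 there and none at 1000 or more.

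**Figure D1:**
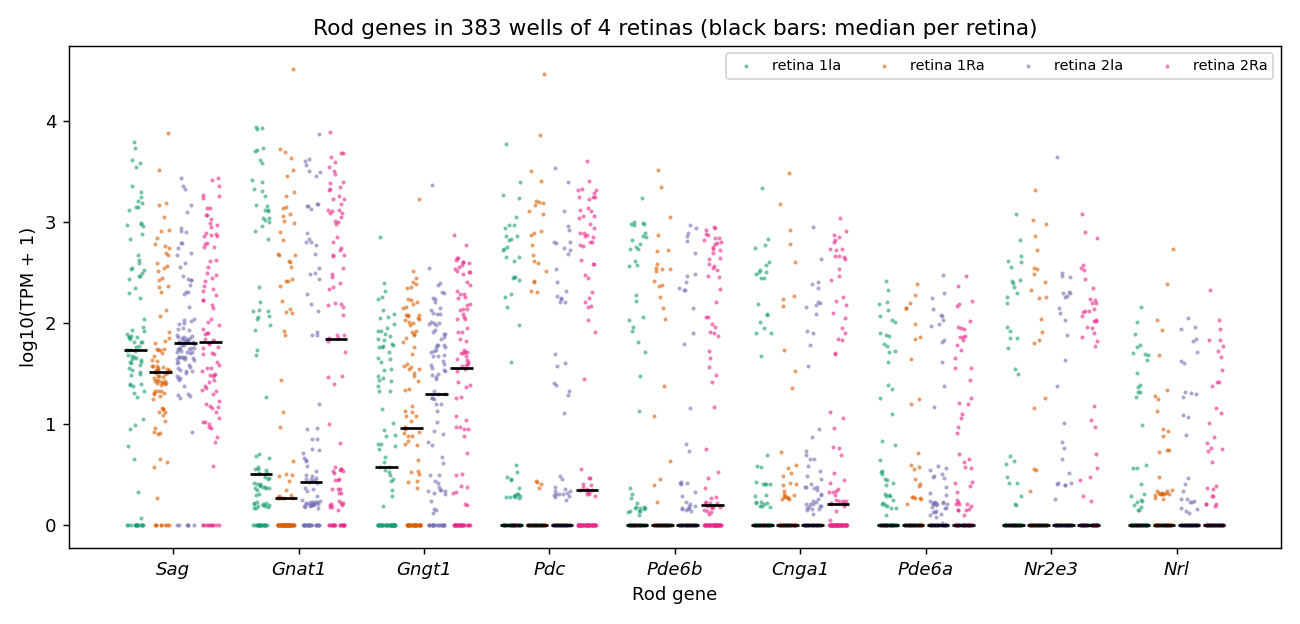
Level of each rod gene in every well, as log10(TPM + 1), with 1 point per well, coloured by retina, and black bars for the median of each retina. Sag and Gngt1 fill the middle of the axis, whereas Gnat1, Pdc, Pde6b and Cnga1 leave a gap between values near 0 and high values.

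Of the transducin subunits, Gnat1 (chr9:107674474-107679712, minus strand, by GENCODE vM21 on GRCm38) was detected in 278 of 383 wells, 72.6% with an exact Clopper-Pearson 95% interval of 67.8 to 77%, and Gngt1 in 259 wells, 67.6% (62.7 to 72.3%). These intervals treat wells as independent and do not cover the spread between retinas or mice. By retina, Gnat1 was detected in 80%, 51%, 77.1% and 82.3% of the wells of 1la, 1Ra, 2la and 2Ra. Retina 1Ra was low for Gnat1 through wells with few counts, since it had 30 wells with at least 100 counts, beside 28, 26 and 43 in 1la, 2la and 2Ra. Gngt1 was detected in 57.9%, 65.6%, 77.1% and 69.8% of wells of 1la, 1Ra, 2la and 2Ra. The mean Gnat1 level was 791, 732, 433 and 735 TPM for 1la, 1Ra, 2la and 2Ra, a mean of 673 ± 162 TPM (SD, n = 4 retinas). Gngt1 was at 36.2, 65.5, 71.2 and 104 TPM in the same order, 69.1 ± 27.6 TPM (SD, n = 4), so the retina lowest in Gngt1 was the highest in Gnat1. Without its highest well, the Gngt1 mean of 2la was 47.2 TPM.

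The phosphodiesterase subunits were detected in fewer wells, Pde6a (chr18:61220315-61289924, plus strand) in 38.1% and Pde6b (chr5:108388391-108432397, plus strand) in 41%. The channel subunit Cnga1 (chr5:72603696-72644275, minus strand) was detected in 40.2%. Each of the 3 was detected in the smallest share of wells in 1Ra (21.9%, 24% and 26%) and in the largest in 2Ra (46.9%, 60.4% and 51%). Mean levels were 17.4 ± 3.69 TPM for Pde6a, 119 ± 38.3 TPM for Pde6b and 72.4 ± 30.5 TPM for Cnga1 (SD, n = 4 retinas). Without its highest well, the Cnga1 mean of 1Ra went from 73.1 to 42 TPM. TPM is scaled by length, so these levels can be set beside each other, and Pde6a, which forms a heterodimer with Pde6b, was the lower subunit in all 4 retinas. Its retina means were 19.5, 12.5, 16.5 and 20.9 TPM in 1la, 1Ra, 2la and 2Ra, against 145, 118, 65.5 and 148 TPM for Pde6b.

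Of the genes that bind or quench the active cascade, Sag (chr1:87803680-87845158, plus strand) was detected in 342 wells, 89.3% (85.8 to 92.2%), with 83.2%, 90.6%, 93.8% and 89.6% for 1la, 1Ra, 2la and 2Ra. Among the 321 wells with 3000 or more genes the share was 99.4%, and in the 62 others it was 37.1%. Its retina means were 503, 259, 224 and 351 TPM (334 ± 125 TPM, SD, n = 4). Pdc (chr1:150319417-150333906, plus strand) was detected in 42.6% of wells and its retina means were 246, 590, 149 and 416 TPM (350 ± 194 TPM). In 1Ra, 1 well without a marker held 29351 TPM of Pdc and 32821 TPM of Gnat1 on a total of 613257 counts and 2192 genes. Without this well the mean of 1Ra was 287 TPM for Pdc and 394 TPM for Gnat1.

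The transcription factors were the least often detected. Nrl (chr14:55518978-55524981, minus strand) was found in 27.7% of wells and Nr2e3 (chr9:59942771-59960659, minus strand) in 28.7%, and their retina means were 9.05 ± 2.08 and 68.4 ± 8.69 TPM (SD, n = 4). Single wells weighed on both, since without its highest well the Nr2e3 mean of 2la went from 71.3 to 25.3 TPM and the Nrl mean of 1Ra from 11.9 to 6.31 TPM. Nrl reached 100 counts in 14 wells and never 1000, and Nr2e3 reached 100 counts in 59. Nr2e3 shares 61 exon bases with Gm15507, a lincRNA on the same strand. The other 8 genes share no exon bases with another gene in GENCODE vM21.

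After each well was thinned to 100000 counts, with 39 shallower wells left out, the shares of the 344 remaining wells were 88.1% for Sag, 59.6% for Gngt1, 45.6% for Gnat1, 34.3% for Pdc, 29.1% for Pde6b, 25% for Pde6a, 24.1% for Cnga1 and Nr2e3, and 20.3% for Nrl. Gnat1 lost the most, and at this depth its share by retina was 46.7%, 38.7%, 40.9% and 57.8% in the same order of retinas. At equal depth Gngt1, not Gnat1, was therefore the second most often detected.

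A well held a median of 4 of the 9 genes, and the number had a second, smaller peak at all 9. No rod gene was detected in 14 wells, exactly 3 in 78, 7 in 14, 8 in 27 and all 9 in 44. The 14 wells with none were nearly empty, with a median total of 15.5 counts and a median of 10.5 detected genes. The 44 wells with all 9 came from each retina and each marker group, 20 with Sox6 alone, 10 with Vsx1 alone, 7 with Ddit4l alone, 6 with no marker and 1 with several. Each of these had 3000 or more genes. Their summed rod gene level had a median of 5513 TPM and ran from 1066 to 17099 TPM, against a median of 85.6 TPM in wells with 3 rod genes.

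The summed level over the 9 genes had a median of 186 TPM, quartiles of 58.2 and 1075 TPM and a maximum of 77420 TPM. The medians of the retinas were 129, 174, 132 and 297 TPM for 1la, 1Ra, 2la and 2Ra. A sum of 1000 TPM or more was reached in 97 wells (25.3%, 21 to 29.99%), 25, 21, 18 and 33 of them by retina in that order. By marker, these were 28% of the Sox6 wells, 29% of the Vsx1 wells, 18.3% of the Ddit4l wells, 25% of the wells without a marker and 15% of those with several. Wells with a high rod sum were thus found in every retina and every marker group. The 38 highest wells of each gene held between 58.8% (Gngt1) and 89.4% (Nrl) of its total TPM.

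**Figure D2:**
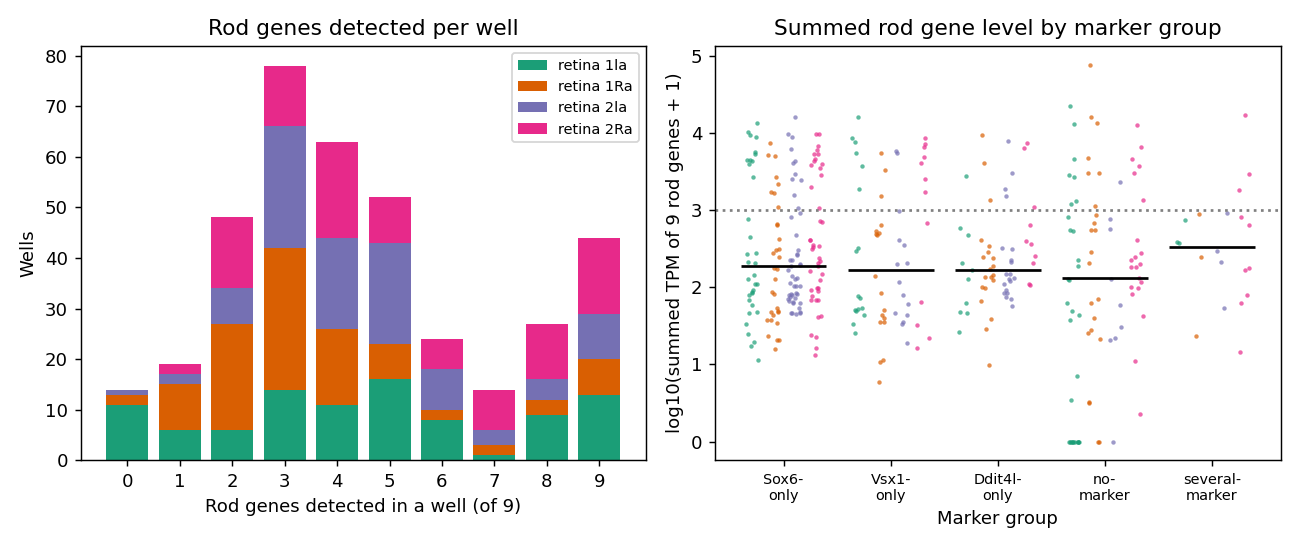
Left, number of wells by how many of the 9 rod genes were detected, stacked by retina. Right, summed TPM of the 9 genes in each well as log10(TPM + 1) by marker group, with points coloured by retina, black bars for the median and a dotted line at 1000 TPM. The left panel has a main peak at 3 genes and a second at 9, and the right panel shows wells above the dotted line in all 5 groups.

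Wells with a high rod sum also carried the bipolar genes. Among wells with 3000 or more genes, the 13 bipolar genes summed to a median of 6579 TPM where the rod sum was under 100 TPM, 6766 TPM at 100 to 1000, 5454 TPM at 1000 to 10000 and 5706 TPM in the 8 wells at 10000 or more. The median number of bipolar genes at 1 TPM was 11, 11, 12 and 11 of 13 over these bands. Over the same bands the 38 other photoreceptor genes rose from a median sum of 1594 to 1735, 6571 and 16308 TPM, and the medians of the 9 cone genes lay between 4 and 6.50 TPM. In the 3 wells with 10000 TPM or more but under 3000 genes, the bipolar sum had a median of 68.8 TPM. Whether 1 cell or several gave the RNA of a well was not tested.

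Across wells the rod genes went together, Gngt1 less closely than the others. Spearman correlations of log2(TPM + 1) over 383 wells, which share depth and retina, lay between 0.40 and 0.65 (median 0.50) for the 28 pairs without Gngt1 and between 0.29 and 0.41 (median 0.36) for the 8 pairs with it. The highest was Gnat1 with Pdc at 0.65. Correlated with the mean of the other 8 genes, Pdc led at 0.65, followed by Gnat1 at 0.62 and Pde6b and Nr2e3 at 0.60, and Gngt1 was last at 0.37. The number of rod genes in a well followed the number of genes detected (0.55), while their summed TPM did so less (0.25). The sum had correlations of -0.01 with Kcng4, 0.10 with Sox6, -0.01 with Vsx1 and 0.06 with Ddit4l. Between neighbouring wells of a plate the rod sum had a correlation of 0.08 over 684 pairs.

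Wells with and without Gnat1 differed more in high counts of most other rod genes than in their detection. Pdc was detected in 51.1% of wells with Gnat1 detected and in 20% of those without, and Sag in 92.4% and 81%. Within the Gnat1 wells, shares at 100 counts were lower than shares detected for Sag, Gngt1, Pde6a, Nrl and Cnga1. Of the 127 wells with at least 100 counts of Gnat1, 79.5% also had 100 counts of Sag, 71.7% of Pdc, 63% of Pde6b, 44.9% of Nr2e3, 44.1% of Cnga1, 37.8% of Pde6a, 35.4% of Gngt1 and 11% of Nrl. Of the wells with less Gnat1, at most 2.7% had 100 counts of Pdc, Pde6b, Nr2e3, Cnga1, Pde6a or Nrl, but 10.9% had 100 counts of Sag and 8.2% of Gngt1. In the other direction, 96.4% of wells with 100 counts of Pde6b had 100 counts of Gnat1. In all 14 wells with 100 counts of Nrl, Gnat1, Sag and Pdc each had 100 counts as well.

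The ratios between most rod genes were alike in the 4 retinas when all wells were summed, but some of these sums rest on single wells. From TPM summed over the wells of a retina, the log2 ratio of Gnat1 to Pde6b was 2.53 ± 0.19, that of Nr2e3 to Nrl 2.94 ± 0.28, that of Cnga1 to Pde6b -0.77 ± 0.24, that of Gnat1 to Nrl 6.20 ± 0.31 and that of Gnat1 to Sag 1.04 ± 0.35 (SD, n = 4 retinas). Pde6a to Pde6b was -2.74 ± 0.53, at -2.89, -3.24, -1.99 and -2.83 in 1la, 1Ra, 2la and 2Ra. In 1Ra, 1 well held 43.1% of the summed Cnga1, and in 2la 1 well held 65% of the summed Nr2e3. In wells with 3000 or more genes, Nr2e3 to Nrl was 2.66 ± 0.38, with 2la at 2.08 against 3.35 over all wells. Cnga1 to Pde6b was then -0.95 ± 0.40. The 2 ratios with Gngt1 had the widest spread, Gnat1 to Gngt1 at 3.34 ± 0.83 (4.45, 3.48, 2.60 and 2.83) and Pdc to Gngt1 at 2.25 ± 0.92. Single wells varied much more than retinas. The Gnat1 to Pde6b ratio over 86 wells with 10 counts of both had a median of 2.29 with quartiles of 1.53 and 3.03, and ran from -0.91 to 6.45.

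The Gngt1 ratios had non-overlapping retina values in the 3 single-marker groups, whereas those of Gnat1 to Pde6b overlapped. Gnat1 to Pde6b was 2.54 with Sox6 alone, 2.51 with Vsx1 alone, 2.23 with Ddit4l alone and 2.56 with no marker. Gnat1 to Gngt1 was 3.52 ± 0.68 in the Sox6 wells, 5.05 ± 0.73 in the Vsx1 wells and 1.45 ± 0.42 in the Ddit4l wells (SD, n = 4 retinas). Its retina values in the Vsx1 wells were 5.61, 4.38, 5.75 and 4.48 and those in the Ddit4l wells 0.94, 1.88, 1.68 and 1.29, with no overlap between them. Pdc to Gngt1 had the same order, with 2.15 ± 0.35, 3.40 ± 0.47 and -0.10 ± 1.10. Ratios with Nrl also varied between groups, but that of Nr2e3 to Nrl rested in part on 1 well. Nr2e3 to Nrl was 3.58 ± 0.29 in the Sox6 wells and 2.08 ± 0.93 in the Ddit4l wells, with no overlap of retinas, and 2.54 ± 1.47 in the Vsx1 wells, which overlapped both. The Sox6 value of 2la, 3.87, rests largely on 1 well with 1689 detected genes. This well held 4448 TPM of Nr2e3, 65% of the gene's sum in 2la. Over the wells of 2la with 3000 or more genes, which leave it out, Nr2e3 to Nrl was 2.08, against 3.35 over all wells of that retina. The Sox6 value without this well was not computed, so the gap between the Sox6 and Ddit4l wells may rest on it. Gnat1 to Nrl was 6.71 ± 0.42, 4.83 ± 1.17 and 6.99 ± 1.06 in the Sox6, Ddit4l and Vsx1 wells, and its Sox6 and Ddit4l values overlapped. No test was made on these ratios, since an exact sign-flip over 4 retinas has too few arrangements to pass the threshold.

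**Figure D3:**
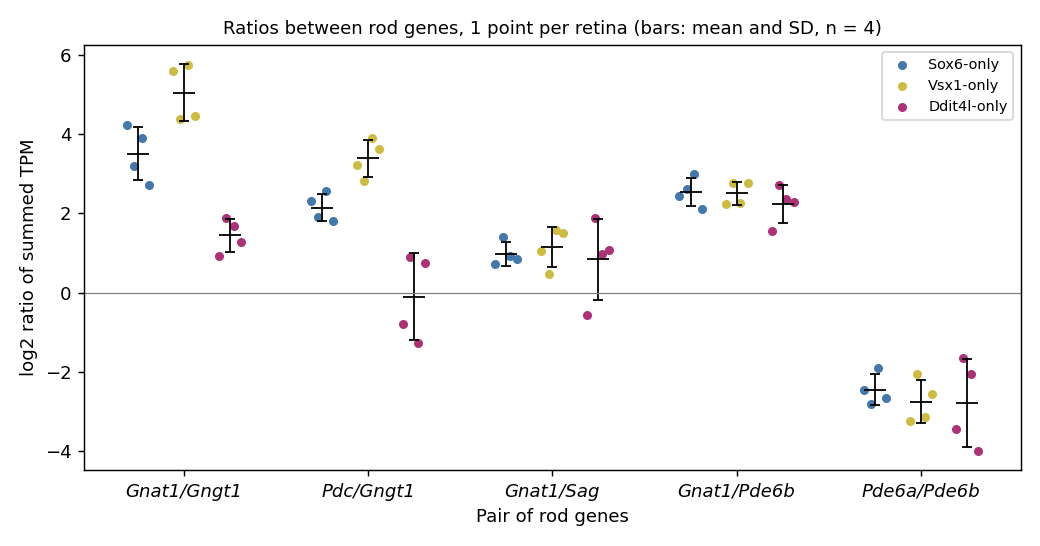
Log2 ratio of TPM summed over wells for 5 pairs of rod genes in the Sox6, Vsx1 and Ddit4l wells, with 1 point per retina and bars for mean and SD over 4 retinas. The 3 groups are apart for the 2 pairs with Gngt1, lowest in the Ddit4l wells, and lie over each other for the 3 pairs without it.

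Gngt1 had the widest range of detection between the single-marker groups. It was detected in 98.3% of Ddit4l wells with a median of 81.7 TPM, in 78.3% of Sox6 wells with 17.1 TPM and in 50% of Vsx1 wells with 1.16 TPM, and in 34.5% of wells without a marker. Median totals were close to each other in the 3 single-marker groups, at 1061550 counts for Sox6, 1056660 for Vsx1 and 1078210 for Ddit4l. After thinning, the shares were 88.3% for Ddit4l, 61% for Sox6 and 31.7% for Vsx1. In counts summed per retina and divided by the library total (CPM), Gngt1 was at 49.4, 83, 93.3 and 192 CPM in the Ddit4l wells of 1la, 1Ra, 2la and 2Ra, at 38.6, 35.8, 29.7 and 90.8 CPM in the Sox6 wells and at 33, 10.7, 9.78 and 50.8 CPM in the Vsx1 wells. The order from Ddit4l to Sox6 to Vsx1 held in 4 of 4 retinas. Of the other 8 genes only Sag had this order in its share of wells, at 100%, 98.1% and 96.8%, and Gnat1 was at 61.7%, 77.7% and 75.8% in the Ddit4l, Sox6 and Vsx1 wells.

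None of the 9 genes passed the test over mice. Counts were summed per mouse and marker group and fitted with edgeR over 17343 genes with the mouse as a block, a call being an adjusted p under 0.05 with a log2 fold change of at least 1. Calls were few for any gene, and the fit rests on 2 mice. For Sox6 against Vsx1 wells, 0 of 9 rod genes were called against 0.0115% of all genes (2 genes, and 876 at an unadjusted p under 0.05), and 0 of the 9 had an unadjusted p under 0.05. For Sox6 against Ddit4l wells it was 0 of 9 against 0.0173% (3 genes, 782 unadjusted), with Gngt1 and Cnga1 under 0.05 unadjusted. For Vsx1 against Ddit4l wells it was 0 of 9 against 0.0865% (15 genes, of which 0.0288% of all genes were higher and 0.0577% lower, and 1351 unadjusted), again with Gngt1 and Cnga1. DESeq2 on the same sums called 0, 1 and 1 rod genes in these comparisons, Gngt1 in both cases, against 2.35%, 1.83% and 4.94% of all genes.

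For Gngt1 the edgeR log2 difference was 0.84 ± 0.38 (SE) for Sox6 minus Vsx1, -0.97 ± 0.38 for Sox6 minus Ddit4l and -1.82 ± 0.39 for Vsx1 minus Ddit4l, the last with an adjusted p of 0.275. In retina sums blocked by retina, it was -2.11 with an adjusted p of 0.0641. Sag gave 1.31 ± 0.67 for Sox6 minus Ddit4l and 1.45 ± 0.68 for Vsx1 minus Ddit4l (adjusted p 0.694), and Pde6b gave 1.60 ± 1.59 for the latter. Over the 9 genes the median log2 difference was -0.14 for Sox6 minus Vsx1, 1.05 for Sox6 minus Ddit4l and 1.13 for Vsx1 minus Ddit4l, beside 0.05, 0.08 and 0.02 over all genes. Of the 38 other photoreceptor genes 0 were called in each comparison, and their medians were -0.33, 0.94 and 1.21. The median of the 9 genes for Sox6 minus Vsx1 became 0.20 without retina 2Ra, and that for Vsx1 minus Ddit4l became -0.12 without retina 1la.

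In summed counts, the wells without a marker had positive fitted differences for all 9 rod genes, and none of these passed the test. Over wells of all depths, Sag was detected in 58.3% of them, Gngt1 in 34.5% and Pde6a in 23.8%, each below every single-marker group. After thinning to equal depth, the 52 of them with at least 100000 counts held a median of 3 rod genes, beside 2 in each single-marker group. Thinning left out 32 wells without a marker, against 3 Sox6, 2 Vsx1 and 0 Ddit4l wells, so this median does not cover the whole group. Among wells with 3000 or more genes, those without a marker had Gnat1 in 87.9%, Sag in 93.9%, Gngt1 in 57.6% and Pde6a in 45.5%. Against the mean of the 3 single-marker groups, 0 of 9 rod genes were called beside 0.0115% of all genes (2 genes, 1598 unadjusted), and Gngt1, Cnga1, Sag and Nr2e3 had an unadjusted p under 0.05. Cnga1 had a log2 difference of 1.86 ± 0.34 (SE, adjusted p 0.209), Pdc of 2.67 ± 1.35 (0.628) and Gngt1 of 0.96 ± 0.30 (0.388). The median over the 9 was 1.41 beside -0.01 over all genes. The direction was not the same under every setting, since Nrl was at -0.27 in wells with 3000 or more genes, Pde6a at -0.22 with the marker threshold at 10 TPM and Nr2e3 at -0.082 without retina 2Ra. In mouse 1 the level of Pdc in these wells was 1323 CPM, and 704 CPM without the 1 well of highest rod sum, and Gngt1 was at 66.3 and 32.4 CPM in the same way, beside 37.6 CPM in the Sox6 wells of that mouse. These wells hold 6 of the 11 with a rod sum of 10000 TPM or more. In wells with 3000 or more genes the median log2 difference over the 9 genes was 0.94, with 8 of 9 positive. Over wells of all depths without retina 2Ra, this median was 0.47. Low depth moves with this group, and its part in the result was not tested. In the wells with several markers 0 of 9 were called beside 0.00577% (1 gene, 1377 unadjusted). Gngt1 was at 1.03 ± 0.30 (0.601), the only one with an unadjusted p under 0.05, Pde6a was at -1.95 ± 1.23, and the median over the 9 was -0.34 beside -0.21. DESeq2 called Gngt1 and Cnga1 in the first comparison and Gngt1 in the second, against 5.04% and 5.06% of all genes.

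Gngt1 and Sag were also followed in wells that held little of the rest. This comparison was chosen after the well values had been seen. It took wells with 3000 or more genes and under 10 counts of each of the other 7 rod genes, 83 with Sox6 alone, 29 with Vsx1 alone and 38 with Ddit4l alone. Sag was detected in every one of these 150 wells, at medians of 45.5, 37.1 and 32.9 TPM. Gngt1 was detected in 37 of 38 Ddit4l wells (97.4%) with a median of 80.4 TPM, in 62 of 83 Sox6 wells (74.7%) with a median of 7.53 TPM, and in 9 of 29 Vsx1 wells (31%, 15.3 to 50.8%), where its median was 0 and its highest value 7.43 TPM.

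By retina, the mean Gngt1 level in these wells was 51, 83.7, 65.7 and 278 TPM with Ddit4l, 25.1, 45.2, 22.9 and 53.6 TPM with Sox6, and 1.23, 0.83, 0.91 and 1.04 TPM with Vsx1, in the order 1la, 1Ra, 2la and 2Ra. The Vsx1 values lay below all others in each retina, and those of Ddit4l above those of Sox6. Summed counts in the Vsx1 wells were 10, 4, 7 and 3, so these levels rest on few reads. Gngt1 entered the fit below through its counts in the other groups. In an edgeR fit of the 12 retina sums over 12793 genes with the retina as a block, Gngt1 was higher in Sox6 than in Vsx1 wells, at a log2 difference of 4.87 ± 0.76 (SE, adjusted p 0.0410), where 0.344% of all genes were called. It was lower in Vsx1 than in Ddit4l wells, at -6.51 ± 0.82 (adjusted p 0.0102), where 1.02% were called. The difference between Sox6 and Ddit4l wells, -1.65 ± 0.66, had an adjusted p of 0.617, with 0.203% called. Leaving out any 1 of the 4 retinas ended both calls, with adjusted p of 0.199 to 0.398 for the first and 0.0703 to 0.117 for the second, while the differences stayed at 4.55 to 5.15 and -6.95 to -6.01. Retinas of 1 mouse are not independent animals, so these p-values measure the spread between retinas. The wells were also chosen after the Gngt1 values had been seen, so the p-values describe this pattern and are not a test of it. In the edgeR test over mice with all wells, Gngt1 was not called in any of these comparisons.

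Sag in the same wells had differences of 0.23 ± 0.67 for Sox6 minus Vsx1 (adjusted p 1.00), 0.47 ± 0.65 for Sox6 minus Ddit4l (1.00) and 0.24 ± 0.67 for Vsx1 minus Ddit4l (0.959). Its retina means were 68.5 ± 29.97, 58.7 ± 34.6 and 49.7 ± 13.4 TPM (SD, n = 4) for Sox6, Vsx1 and Ddit4l. Sag was also detected in all 20 wells with 3000 or more genes in which none of the other 7 reached 1 count, at a median of 44.7 TPM, and Gngt1 in 14 of these.

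**Figure D4:**
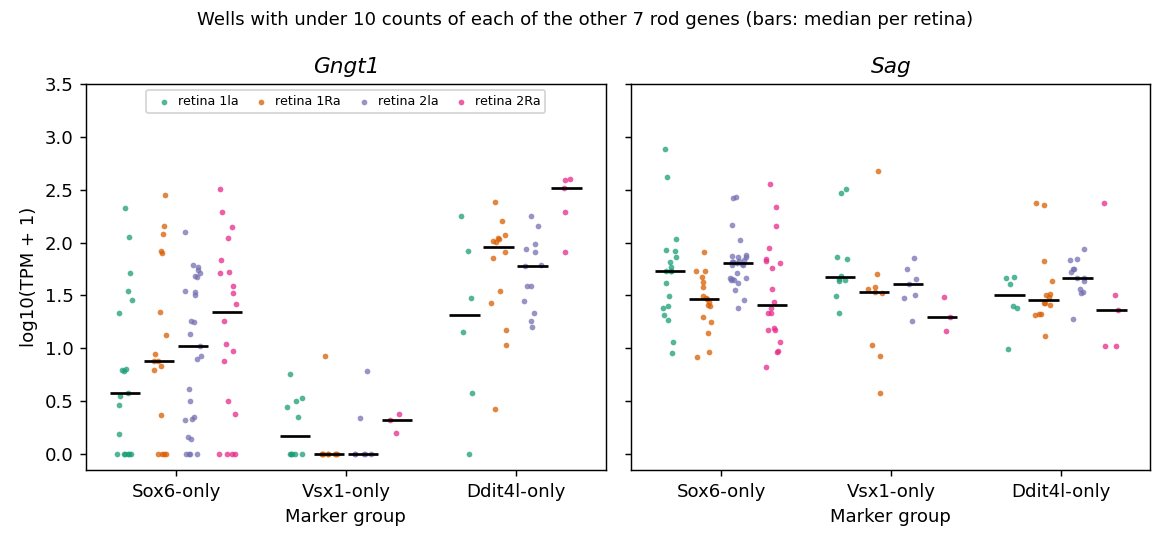
Gngt1 (left) and Sag (right) as log10(TPM + 1) in the 150 wells with 3000 or more genes and under 10 counts of each of the other 7 rod genes, by marker group, with 1 point per well, coloured by retina, and bars for the median of each retina. Gngt1 is highest in the Ddit4l wells and at or near 0 in the Vsx1 wells of all 4 retinas, while Sag lies at similar levels in the 3 groups.

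Between the Ra and la retinas, 0 of 9 rod genes were called by edgeR on retina sums over 18064 genes, beside 0% of all genes (1882 genes had an unadjusted p under 0.05). Pdc was the 1 rod gene with an unadjusted p under 0.05. Its level was 251 CPM in 1la against 469 CPM in 1Ra, and 112 CPM in 2la against 430 CPM in 2Ra, higher in the Ra retina of both mice, and the fitted log2 difference was 1.37 ± 0.42 (SE, adjusted p 0.412). Without the 1 well of 1Ra with 29351 TPM of Pdc, an omission chosen after the values were seen, 1Ra was at 239 CPM, below 1la. Gngt1 was at 39.9, 53.9, 42.4 and 110 CPM, with a difference of 1.05 ± 0.40 (0.481). The median over the 9 genes was 0.41 beside -0.02 over all genes. DESeq2 called Pdc, at 1.39 with an adjusted p of 0.0153, against 3.24% of all genes.

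The genes most like the rod genes over wells were other photoreceptor genes. Ranked by the Spearman correlation with the mean log2(TPM + 1) of the 9 over 383 wells, among 11918 genes at 1 TPM or more in at least 10% of wells, Pde6g, the inhibitory phosphodiesterase subunit, came first at 0.67. It was followed by Prph2, a disc rim protein, at 0.65, Rcvrn (recoverin) at 0.63, Gnb1, the transducin beta subunit, at 0.62 and Guca1b, which activates guanylate cyclase, at 0.62. Rp1, Slc24a1, Samd11, Tulp1, Guca1a, Prom1, Gm21743, Vtn, Reep6 and Aipl1 were next, between 0.58 and 0.54. Of the 38 other photoreceptor genes 35 were ranked, and 29 of these had a correlation of 0.3 or more, against 157 of 11908 genes in all (1.32%). The medians were 0.50 and 0.11. Cone genes had a median of 0.11 and bipolar genes of 0.10. The most negative were Gm26924 at -0.21, Lars2 at -0.12, mt-Nd5 and Gapdh at -0.11 and Cib2 at -0.10.

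Some photoreceptor genes were in most wells but had lower correlations than those at the top. Gnb5, a partner of the RGS9 protein, was at 1 TPM or more in 87.7% of wells with a correlation of 0.13, and Crx in 86.7% with 0.29. Rom1 (81.2%, 0.42), Rbp3 (71.3%, 0.31), Unc119 (70.2%, 0.30) and Cngb1, the beta subunit of the rod channel (67.6%, 0.33), were also widespread. Its partner Cnga1 was at 1 TPM or more in 32.1% of wells.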

How the data were processed

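The deposited tables of the authors hold, for each well, unnormalised RSEM expected counts of every gene and the matching TPM. The tools were RSEM 1.2.28 and TopHat2 2.0.10 with assembly mm10, per the submitters' processing notes, and the annotation is not given in the sources used here. Whether counting used strand is not stated. CPM (computed here) divide the deposited counts by each library total. One well of retina 1la was not analysed here. Wells were assigned to retinas by their labels and to marker groups at 20 TPM. The 9 genes, the lists and the comparisons were chosen with earlier results of these data known.

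Expected counts were rounded and summed over the wells of each mouse and marker group, or per retina for Ra against la, and tested with edgeR 4.0.16 (quasi-likelihood, TMM, filterByExpr, R 4.3.3, limma 3.58.1). The mouse was a block between marker groups, since every group came from both mice. P-values were adjusted over all genes by Benjamini-Hochberg. Groups needed 5 wells in each mouse. The test was tried on simulated data. Alternatives were DESeq2 1.42.0, retina sums, no block, plain totals, no filter, marker thresholds of 10 and 50 TPM, wells with 3000 or more genes and leaving out each retina. Named genes were the 9, the 4 genes Sox6, Vsx1, Ddit4l and Kcng4, up to 15 genes most like the 9 and up to 5 most unlike, and up to 4 examples per list by mean TPM. Rom1, Rbp3, Unc119, Cngb1 and Crx were named after their values were seen. Tables were handled with Python 3.11.15 and pandas 2.3.3. Sequences are from RefSeq, GRCm38.p6. Some further results are not reported here. Counts are reads, not molecules. The intervals on shares treat wells as independent and do not cover the spread between retinas or mice.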

Additional observations from a re-analysis of the deposited data

Results flagged for a closer look

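Over 30 sets of 4 retinas examined, 2 held a retina far from the other 3 by Dixon's criterion at the 95% level, which chance exceeds in about 1 of 20 sets. Gnat1 was detected in 51% of wells of 1Ra, beside 77.1 to 82.3% in the others. Retina 1Ra had the lowest median total, at 740102 counts, and after thinning its Gnat1 share lay close to that of 2la. The mean Gnat1 level of 2la was 433 TPM, beside 732 to 791 TPM. Without the single well of highest rod sum, the mean of 1Ra was 394 TPM, below that of 2la.

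The difference between the Ra and la retinas went opposite ways in the 2 mice for 4 rod genes. On the log2 CPM scale, Ra minus la was -0.47 in mouse 1 and 1.05 in mouse 2 for Gnat1, -0.999 and 0.51 for Pde6a, -0.85 and 1.36 for Pde6b, and -1.19 and 0.89 for Sag. Each value compares 1 retina with 1 retina, and the difference between mice was not tested.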

How the results depend on the processing

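DESeq2 called 1 rod gene for Sox6 minus Ddit4l, 1 for Vsx1 minus Ddit4l, 2 for no marker, 1 for several markers and 1 for Ra minus la, where edgeR called 0. No other alternative called any of the 9 in these comparisons. Over all genes DESeq2 called 407, 318, 857, 874, 877 and 585 genes, where edgeR called 2, 3, 15, 2, 1 and 0. Retina sums with the retina as a replicate block called 25, 34, 96, 26 and 8 genes, and mouse sums with no replicate block 12, 2, 22, 5 and 1. In the wells with little of the other 7 genes, no replicate block gave Gngt1 differences of 5.08 (adjusted p 0.0170) and -6.96 (0.00174). There DESeq2 also called Gngt1 for Sox6 minus Ddit4l (adjusted p 0.0161).

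The median number of rod genes per well was 2 from 5 counts, 3 from 1 TPM and 2 after thinning. From expected counts in place of TPM, log2 ratios were -2.17 for Pde6a to Pde6b, 4.30 for Gnat1 to Gngt1, 2.04 for Gnat1 to Pde6b and -1.58 for Cnga1 to Pde6b. Counts are not divided by length, and their sums also weight wells by depth. These effects were not separated.

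The median log2 difference of the 9 genes for Sox6 minus Vsx1 was 0.024 at 50 TPM and ran from -0.29 to 0.20 with a retina left out, and that for Vsx1 minus Ddit4l ran from -0.12 to 1.95. Sag in the wells with little of the other 7 ran from -0.075 to 0.84 for Sox6 minus Vsx1 and from -0.16 to 0.71 for Vsx1 minus Ddit4l with a retina left out. The cause was not tested. Of 54 pairs of gene and comparison, 32 kept their sign in every alternative run. The group with several markers had no value at 50 TPM or without 1la, 1Ra or 2Ra, having under 5 wells in a mouse. With 2 mice the test over mice had little power, and on simulated data it also missed many large differences.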
